A study of Homo sapiens with 6 samples.

Results

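Chromosome 9 was examined as a short arm and a long arm, with the MYC peaks of each arm set side by side. Every chromosome 9 peak of 3 MYC peak lists was taken and placed on an arm by its summit, the base with the most fragments. Summits below 47300000 were put on the short arm and summits from 65000000 on were put on the long arm, and 0 lay between. Where peaks of different replicates shared at least 1 bp, they were joined into 1 place. This gave 1340 places on chromosome 9 of 27801 on all chromosomes, with 378 on the short arm and 962 on the long arm. All positions are hg19, counted from 1, and every peak position lies on chromosome 9.

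The libraries came from ONS76, an established human medulloblastoma cell line, and the labels give the engineered genotype of all of them as Inducible SOX2. MYC was immunoprecipitated with the antibody Y69 in 3 libraries, and normal IgG was used in 3 others, and binding was mapped without elevated SOX2. The study's methods say that several immunoprecipitations of the same chromatin preparation were pooled. Nothing read here says that each replicate was grown as its own culture. The SD and the p-values therefore measure only the spread between these libraries, which may be technical.

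MYC is a transcription factor that binds DNA as a heterodimer with MAX, with a preference for the E-box CACGTG, and much of its binding lies at the promoters of active genes. The short arm of chromosome 9 holds CDKN2A, which encodes the cell cycle inhibitor p16INK4a and p14ARF. ARF stabilises p53 and restrains growth driven by MYC. Its neighbours are CDKN2B, which encodes another CDK4 and CDK6 inhibitor, and MTAP, an enzyme of methionine salvage. This neighbourhood is deleted in many tumour types. The long arm holds PTCH1, the Hedgehog receptor, whose loss starts one class of medulloblastoma. The deposited positions could not be tied to gene positions, because the annotation at hand is of hg38 and 253 chromosome 9 peaks lie past the end of the hg38 chromosome. Places are therefore given by position, with no gene assigned.

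Both arms carried MYC peaks in each library, and the long arm carried more of them per Mb. Replicate 1 had 341 peaks on the short arm and 863 on the long arm. Replicate 2 had 213 and 563, and replicate 3 had 221 and 589. The deepest library, replicate 1, had the most peaks on both arms. Read totals are not in the peak lists, so depth was read from the genome-wide level, how many fragments a site would hold were they spread evenly, and this was 7.79, 5.84 and 4.76 fragments in replicates 1, 2 and 3. Over spans of 47.3 Mb and 75.5 Mb, the long arm had 1.59, 1.66 and 1.67 times as many peaks per Mb as the short arm, a mean of 1.64 ± 0.045 (SD, n = 3). The ratio was above 1 in 3 of 3 replicates (exact two-sided sign-flip permutation test, p = 0.25). With 3 replicates, 0.25 is the smallest p this test can give, so no comparison of this design can pass 0.05.

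Consensus places, those with peaks from at least 2 replicates, numbered 222 of 378 on the short arm and 594 of 962 on the long arm. These shares, 58.7% and 61.7%, lay beside 62.4% over all chromosomes. The consensus made 4.69 and 7.86 per Mb, a ratio of 1.68, and the long arm held 72.8% of the consensus places of the chromosome. The ratio rested in large part on the last stretch of the long arm. Without the part from 130 Mb on, the consensus ratio was 1.18 and the ratio of peaks per Mb was 1.17. Gene content differed between the arms by a like factor. On hg38, whose arms were taken from its own sequence, the annotation listed 214 protein-coding genes on the short arm and 563 on the long arm, a ratio of 2.63. The ratio of consensus place numbers was 2.68, so each arm had about 1 consensus place for each such gene, 1.04 on the short arm and 1.06 on the long arm. These are counts over whole arms in different builds and do not say which gene a place lies at.

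**Figure D1:**
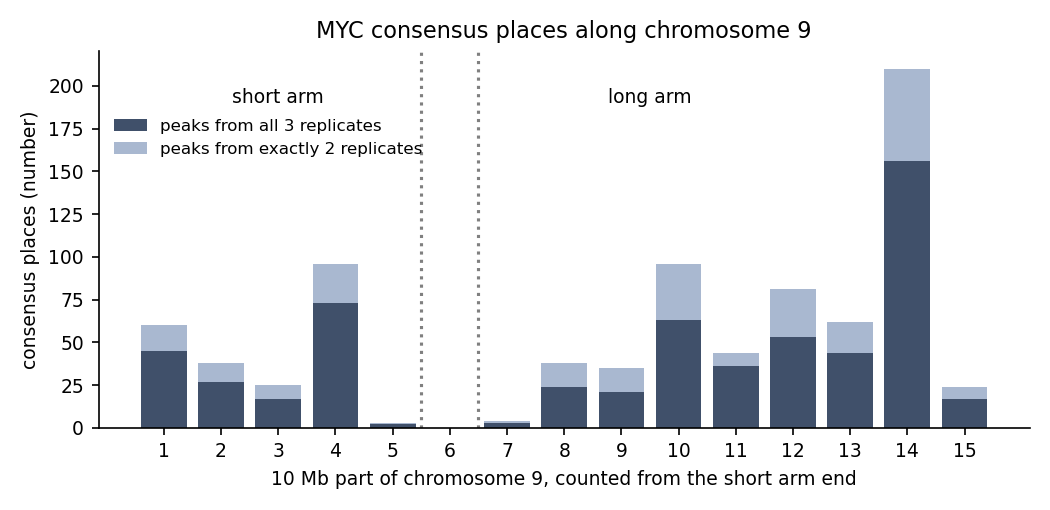
Consensus places in each 10 Mb part of chromosome 9, counted from the end of the short arm, with dark bars for places found in all 3 replicates and light bars for places found in exactly 2. The dotted lines mark the part with 0 places between the arms. Part 14 stands out with 210 places, ahead of parts 4 and 10 with 96 each.

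The places were unevenly spread within each arm, as the plot of consensus places by part shows. From the short arm end, the first 4 parts of 10 Mb held 60, 38, 25 and 96 consensus places, and the remainder of the arm held 3. On the long arm, the part reaching 70 Mb held 4, and the following parts held 38, 35, 96, 44, 81, 62 and 210, with 24 in the incomplete last part. The median distance between neighbouring consensus summits was 58.6 kb on the short arm and 36.6 kb on the long arm. Neighbours at most 10 kb apart made up 34 of 221 pairs (15.4%) on the short arm and 129 of 593 (21.8%) on the long arm. Neighbours 500 kb or more apart made up 20 pairs (9.05%) and 24 pairs (4.05%). The longest stretch without a consensus place was 3.89 Mb on the long arm, between the place that ends at 119449936 and the one that starts at 123342313, in which 3 peaks from 2 libraries were seen. On the short arm it was 2.47 Mb, from the end of a place at 7799884 to the start of another at 10265194, with 4 peaks from 2 libraries.

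The share of places found again in every library was the same on both arms within counting error. Of the 378 short arm places, 164 had peaks from all 3 replicates, 58 from exactly 2 and 156 from 1. Of the 962 long arm places, 417 had peaks from all 3, 177 from 2 and 368 from 1. Places found in all 3 replicates were 43.4% of the short arm (95% exact Clopper-Pearson interval 38.3% to 48.6%) and 43.3% of the long arm (40.2% to 46.5%), beside 45.0% over all chromosomes. The intervals cover counting error only. Most places of a single library came from the deepest one, with 119 of 156 on the short arm and 274 of 368 on the long arm found in replicate 1 only.

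Stronger peaks were shared more often on both arms. In replicate 1, peaks with a −log10 p-value under 10 lay at a place of all 3 replicates in 11.3% of cases on the short arm and 10.7% on the long arm. In the class from 20 to 50 the shares were 85.4% and 86.8%. In replicates 2 and 3 this class had 98.1% and 93.6% on the short arm and 99.2% and 98.4% on the long arm. Under 10 these replicates had 46.2% and 52.0% on the short arm and 51.5% and 51.9% on the long arm. All chromosome 9 peaks of 50 or more, in each library and on both arms, lay at such a place. Over all chromosomes the shares in replicate 1 were 10.3% under 10 and 87.1% from 20 to 50, near those of the arms. At 50 or more they were 99.97%, 100% and 100% in replicates 1, 2 and 3. The median fold enrichment of peaks shared by all 3 replicates over that of peaks of 1 library was 1.67 ± 0.303 on the short arm and 1.60 ± 0.155 on the long arm (SD, n = 3). Across shared places, the fold enrichment of pairs of replicates had a Spearman rho of 0.766 to 0.827 on the short arm (167 to 193 places) and 0.745 to 0.797 on the long arm (428 to 509 places). This is a description, since places share their libraries. Between libraries, the median distance of matching summits was 33 to 37.5 bp.

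Median fold enrichment did not separate the arms beyond the spread of the libraries. Fold enrichment is the ratio of fragments at the summit to the fragments its surroundings predict, each raised by 1. Its median in replicates 1, 2 and 3 was 3.93, 4.43 and 4.57 on the short arm and 4.21, 4.41 and 4.69 on the long arm. The values of the arms overlapped, and the ratio of long to short was 1.07, 0.997 and 1.03, with a mean of 1.03 ± 0.037 (SD, n = 3; exact permutation p = 0.5). Over all chromosomes the medians were 4.15, 4.49 and 4.78. Peak width did not separate the arms either, with a ratio of 1.01 ± 0.017, although it was 0.942 over places found in all 3 replicates and 1.04 without the first 20 Mb.

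The fragment count at the summit and the local background did separate them, both being higher on the short arm. Both were worked out from the deposited fold enrichment and p-value of each peak and put over that library's own genome-wide level, so that libraries of unequal depth can be set side by side. Median summit fragments were 6.04, 6.16 and 6.94 times the genome-wide level on the short arm and 5.27, 5.31 and 5.89 times on the long arm. The ratio of long to short was 0.861 ± 0.012 and lay below 1 in 3 of 3 replicates (n = 3; exact permutation p = 0.25). Median relative background, the local background over the genome-wide level, was 1.42, 1.18 and 1.22 on the short arm and 1.11, 1.00 and 1.00 on the long arm. The values of each library were higher on the short arm, with a ratio of long to short of 0.817 ± 0.031 (n = 3; exact permutation p = 0.25).

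The lowest value the background can take is the genome-wide level itself. In replicate 1, 4.40% of short arm peaks and 30.5% of long arm peaks sat at that level (a relative background within 0.0005 of 1), beside 28.9% of peaks on all chromosomes. The shares were 17.4% and 51.5% in replicate 2, beside 40.4%, and 14.9% and 56.7% in replicate 3, beside 40.0%. The short arm lay below the value for all chromosomes in each library, and the long arm lay above it. Without the part from 130 Mb on, the long arm had 11.4%, 30.4% and 34.7% at that level and also lay below the value for all chromosomes.

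The higher background and fragment count of the short arm came mainly from its first 20 Mb. Without these 20 Mb, the ratio of long to short was 0.930 for relative background and 0.982 for summit fragments. Within them the median relative background was 1.68, 1.501 and 1.54, against 1.20, 1.05 and 1.09 over the remainder of the short arm. The ratio was 1.40, 1.43 and 1.41, a mean of 1.41 ± 0.015 (SD, n = 3; exact permutation p = 0.25), and the values of the 3 libraries in the first 20 Mb did not overlap with those in the remainder. Summit fragments were 1.28 ± 0.077 times as high in the first 20 Mb, in 3 of 3 replicates. Fold enrichment was 0.9499 ± 0.107 times that of the remainder, with replicates on both sides of 1. The remainder of the short arm had 1.02 ± 0.017 times the summit fragments of the long arm (above 1 in 2 of 3 replicates) and 1.08 ± 0.022 times its relative background (above 1 in 3 of 3). Its share of peaks at the genome-wide level was lower in 3 of 3, at 0.434 ± 0.172 times that of the long arm. Set beside the long arm below 130 Mb, replicate 2 went the other way in both. The share was 7.73%, 30.8% and 25.6% against 11.4%, 30.4% and 34.7% in replicates 1, 2 and 3. The median relative background was 1.20, 1.051 and 1.09 against 1.18, 1.055 and 1.06. The boundary at 20 Mb was chosen after the values were seen.

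**Figure D2:**
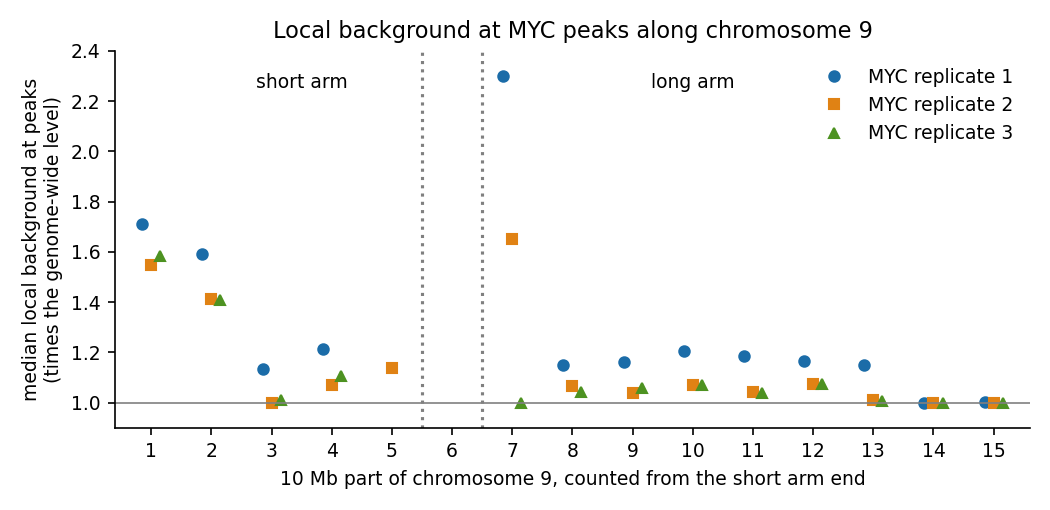
Median local background at MYC peaks, as a multiple of the genome-wide level of the same library, in each 10 Mb part of chromosome 9 and each replicate (parts with under 5 peaks in a replicate are left out). Parts 1 and 2 lie between 1.41 and 1.71, parts 3 and 4 between 1.00 and 1.21, and part 14 sits at 1.00. Part 7, next to the centromere, rests on 5 or 6 peaks per replicate.

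The fall in background along the short arm is seen in the plot of local background by part. In the first 10 Mb the median relative background was 1.71, 1.55 and 1.58, and in the second 10 Mb it was 1.59, 1.41 and 1.41. From 20 to 30 Mb it was 1.14, 1.00 and 1.01. Ranked by the lowest of the 3 replicates, the first part was number 15 and the second number 21 of 293 parts of 10 Mb on all chromosomes, and the highest rank of any other part of chromosome 9 was 69. A median of 1.5 or more in all 3 replicates was found in 18 of the 293 parts (6.14%), of which the first 10 Mb was 1. It was not carried by a few peaks. In the first 20 Mb, 132 of 160, 48 of 96 and 66 of 96 peaks had a relative background of 1.5 or more, beside 21.9%, 12.2% and 14.03% on all chromosomes. Between 20 and 40 Mb the shares were 10.7%, 1.79% and 6.61%. In parts of 2 Mb the background fell before 20 Mb, without a sharp edge there. Its median was 1.63, 1.53 and 1.54 from 14 to 16 Mb. From 16 to 18 Mb it was 1.45, 1.28 and 1.18, and from 18 to 20 Mb it was 1.36, 1.13 and 1.12. These last 2 parts rest on 5 to 11 peaks per replicate.

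A peak on a higher background needs more fragments to be called, so the fragment counts depend in part on the calling itself. The lowest fragment count of any peak in the first 20 Mb was 25, 22 and 21 in replicates 1, 2 and 3, and in the remainder of the short arm it was 23, 18 and 15. Places with peaks in all 3 replicates, 72 in the first 20 Mb and 92 in the remainder, passed the same threshold in each library, so comparing them does not remove this dependence. Over these places, relative background was 1.41 ± 0.012 times as high in the first 20 Mb and summit fragments 1.32 ± 0.052 times, and fold enrichment was 1.00 ± 0.085 times as high. What gave the higher background was not tested, and the control used for peak calling is not stated in the study's methods or labels.

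**Figure D3:**
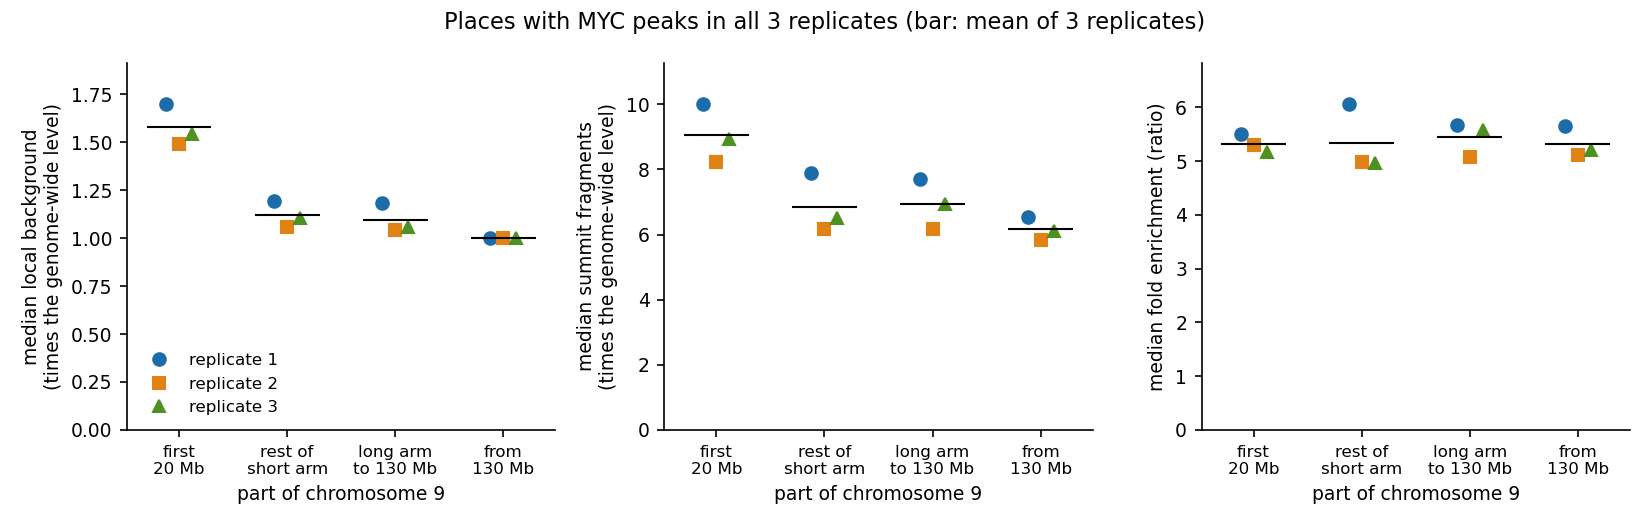
Medians over places with peaks in all 3 replicates, for 4 parts of chromosome 9, of local background (left), summit fragments (middle) and fold enrichment (right), with 1 point per replicate and a bar for their mean. Background and fragments are highest in the first 20 Mb in each replicate, and the means of fold enrichment lie between 5.33 and 5.45 in all 4 parts.

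By number of places, the first 10 Mb stood above the remainder of its arm by 1.45 times in peaks per Mb (1.53, 1.36 and 1.45 in the replicates). In consensus places per Mb it stood above by 1.38 times. It was not the densest part of the arm. From 30 to 40 Mb there were 136, 89 and 97 peaks, against 99, 57 and 62 in the first 10 Mb, and 96 consensus places against 60. The remainder also takes in the sparse stretch from 40 Mb to the end of the arm, with 3 consensus places. It held 107 places, of which 60 were consensus and 45 were found in all 3 replicates. Consensus places of 2000 bp or more numbered 18 of 816 on the chromosome, beside 330 of 17350 on all chromosomes. The short arm held 6 among its 222, 4 of them in the first 10 Mb, and the long arm held 12 among its 594. The nearest places on either side of the 10 Mb limit were weak, chr9:9492657-9492953 in replicate 2 only at a fold enrichment of 4.96, and chr9:10265194-10265616 in replicates 1 and 2 at 2.65 and 3.10.

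The CDKN2A part of the short arm, from 20 to 23 Mb, held fewer consensus places per Mb than the remainder of its arm. In all it held 26 places, of which 7 had peaks in all 3 replicates, 3 in exactly 2 and 16 in 1. The 10 consensus places were 3.33 per Mb, 0.697 times the density in the remainder of the short arm. The low density was not particular to this part. All of 20 to 30 Mb held 25 consensus places and 10 to 20 Mb held 38, against 96 from 30 to 40 Mb. Without replicate 1, the deepest library, 6 consensus places were left. The share of places found in all 3 replicates was 26.9% (95% exact interval 11.6% to 47.8%), beside 44.6% in the remainder of the arm and 45.0% on all chromosomes, and the interval takes in both. Of the 16 places seen in 1 library, 13 were from replicate 1, 3 from replicate 3 and 0 from replicate 2. Replicate 1 had 23 peaks in this part, replicate 2 had 9 and replicate 3 had 11.

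**Figure D4:**
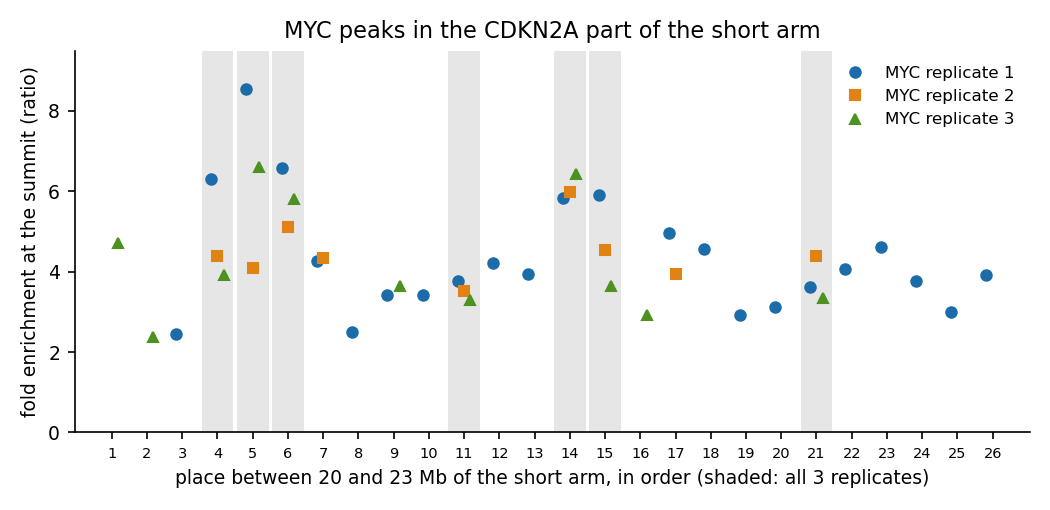
Fold enrichment at the summit of each MYC peak between 20 and 23 Mb of the short arm, for the 26 places in order along the chromosome, with 1 symbol per replicate and grey shading for the 7 places found in all 3. Most values lie between 2 and 7, and the highest is 8.54 in replicate 1 at the place numbered 5.

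The 7 places found in all 3 replicates fell into a close first group of 3 neighbours and a looser second group further along. At chr9:20621623-20622796 the fold enrichment was 6.32, 4.39 and 3.91 in replicates 1, 2 and 3. At chr9:20658138-20658963 it was 8.54, 4.09 and 6.60, and at chr9:20683906-20684540 it was 6.57, 5.12 and 5.81. Replicate 1 was the highest library at all 3.

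In the second group, chr9:21687968-21688831 had closely matched values of 5.83, 5.99 and 6.43. The place chr9:21994070-21995952, with 1883 bp the widest of the part, had 5.92, 4.53 and 3.65. The weakest were chr9:21657070-21657440 at 3.76, 3.51 and 3.30 and chr9:22117444-22118253 at 3.61, 4.39 and 3.35. Both lay below the short arm median of their library in each replicate. The 3 places seen in exactly 2 libraries were chr9:21334847-21335608, chr9:21559307-21560126 and chr9:22052297-22052775, with fold enrichments from 3.42 to 4.97. The places nearest to the limits of the part, inside it and outside it, were seen in 1 library each, except chr9:19464767-19465211 below 20 Mb, which was seen in replicates 2 and 3 at 3.75 and 4.38. Just inside were chr9:20022400-20022646 at 4.72 and chr9:22447199-22447614 at 3.91, and just past 23 Mb was chr9:23674177-23674429 at 3.29.

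Set beside the remainder of the short arm, peaks from 20 to 23 Mb had fewer summit fragments, 0.743 ± 0.066 times, and a lower relative background, 0.812 ± 0.041 times, in 3 of 3 replicates. The relative background was 1.118, 1.00 and 1.03. The remainder here includes the first 20 Mb. Median fold enrichment was 3.95, 4.39 and 3.65, which was 0.924 ± 0.114 times that of the remainder, with replicates on both sides of 1. MYC peaks were thus found in this part in each library, at 0.651 to 1.07 times the number per Mb of the remainder of the arm.

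The last stretch of the long arm, from 130 Mb on, was taken as a part of its own because of its known density, so its numbers of places are a description. It took up 13.9% of the long arm and held 39.4% of its consensus places, 234 of 594, or 28.7% of those of the chromosome. Peaks per Mb were 30.2, 20.05 and 22.5 in replicates 1, 2 and 3, against 8.38, 5.42 and 5.42 in the remainder of the long arm. The ratio was 3.604, 3.70 and 4.16, a mean of 3.82 ± 0.296 (SD, n = 3). Consensus places stood at 22.2 per Mb against 5.54, a ratio of 4.01.

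Within this stretch the Mb from 139 to 140 held 50 consensus places, 36 of them found in all 3 replicates. It ranked 3 among 2274 parts of 1 Mb with a consensus place on all chromosomes. The Mb from 130 and that from 131 held 32 each. The median distance between neighbouring consensus summits was 17.9 kb, against 66.0 kb in the remainder of the long arm, and 31.8% of neighbours lay within 10 kb against 15.3%. The limit at 130 Mb fell inside a run of shared places, with chr9:129987538-129988046 just below it and chr9:130007424-130007805 just above it, both found in all 3 replicates.

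The peaks of this stretch were many and of ordinary strength. Median fold enrichment was 4.44, 4.68 and 4.78, which was 1.07 ± 0.043 times that of the remainder of the long arm, above 1 in 3 of 3 replicates (n = 3; exact permutation p = 0.25). Over places found in all 3 replicates the ratio was 0.979 ± 0.039, with replicates on both sides of 1. Of the 346 places here, 173 had peaks in all 3 replicates (95% exact interval of the share 44.6% to 55.4%). This share was above the 39.6% (35.7% to 43.6%) of the remainder of the long arm. Its interval took in the 45.0% of all chromosomes. The share of peaks at such places was 1.21, 1.17 and 1.02 times that of the remainder in replicates 1, 2 and 3. No consensus place of 2000 bp or more lay here. In each library most peaks, 63.2%, 86.7% and 89.5%, sat at the genome-wide background, against 11.4%, 30.4% and 34.7% in the remainder of the long arm. The end of the short arm and the end of the long arm each differed from the remainder of their arm in both background and number of peaks. Local background was high at the short arm end and low in this stretch. Peaks per Mb were higher at both ends than in the remainder of the arm, 1.45 times in the first 10 Mb and 3.82 times in this stretch. The short arm end was not the densest part of its arm, since 30 to 40 Mb held 96 consensus places against 60. Both end parts were chosen with earlier results known, so the contrast between the ends may rest in part on that choice.

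Among places found in all 3 replicates, ranked by geometric mean fold enrichment, 6 of the top 124 on all chromosomes (the top 1%) were on chromosome 9, with 1 on the short arm and 5 on the long arm. That was 4.84% of the top places, beside 4.65% of all places found in all 3 replicates, of which 581 were on chromosome 9 and 417 of those on the long arm.

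The strongest place of the chromosome was chr9:91932936-91934705 on the long arm, with fold enrichments of 48.2, 37.7 and 37.3 (mean 41.1 ± 6.15 SD, n = 3) from 423, 257 and 214 fragments at the summit. It ranked 8 among 12499 places found in all 3 replicates. The next consensus place toward the long arm end was 1.75 Mb away. The second was chr9:139621980-139623493 in the dense stretch, with 28.5, 22.7 and 29.5. It lay below the first in each library.

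The other 3 long arm places had overlapping values and cannot be put in order. They were chr9:130564903-130565658 at 21.7, 22.1 and 22.8, chr9:96927652-96929484 at 22.0, 19.9 and 23.3, and chr9:86594297-86596512 at 26.5, 18.8 and 19.98. The last of these was 2216 bp wide. The strength of the third place of the dense stretch, chr9:135544849-135546800, was 17.98, 16.5 and 17.7.

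**Figure D5:**
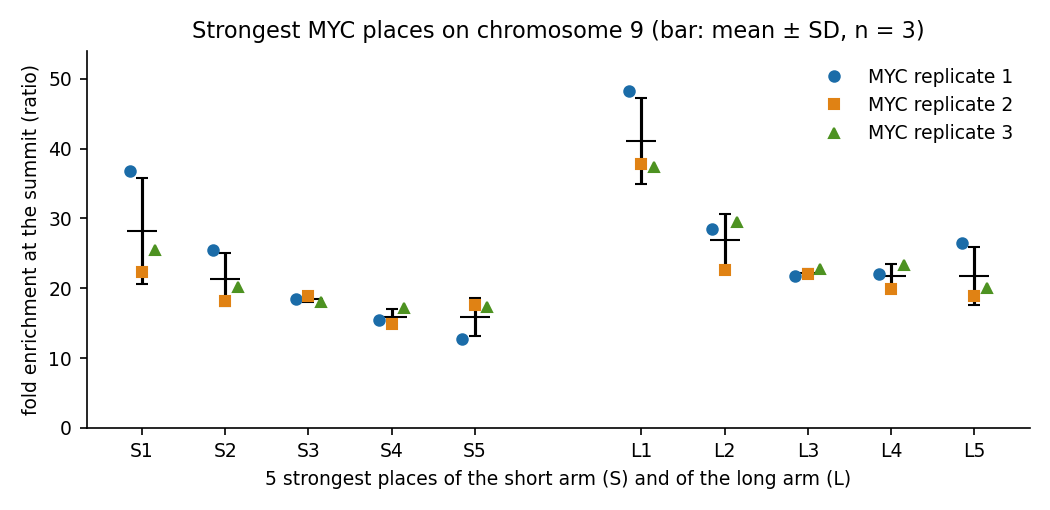
Fold enrichment of the 5 strongest places of the short arm (S1 to S5) and of the long arm (L1 to L5) among those found in all 3 replicates, with 1 symbol per replicate and bars for the mean ± SD (n = 3). L1 lies between 37.3 and 48.2, above all other places shown, and S1 lies between 22.3 and 36.7.

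On the short arm the strongest place was chr9:34048336-34049766, with fold enrichments of 36.7, 22.3 and 25.4 (mean 28.1 ± 7.60 SD, n = 3) and rank 40 on all chromosomes. Replicate 1 set its spread. The following 3 all lay in the first 10 Mb. At chr9:2843380-2844478 the values were 25.5, 18.1 and 20.1, at chr9:2157334-2158414 they were 18.4, 18.8 and 17.998, and at chr9:706540-707511 they were 15.5, 14.9 and 17.2. Their relative backgrounds were 1.27 to 1.60, so these places were strong above a raised background. The fifth was chr9:37119822-37121070 with 12.7, 17.5 and 17.3. It was the weakest of the 5 in replicate 1, where its relative background was 1.95 against 1.00 and 1.22 in the other libraries.

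Near the centromere the background was high at single places. From 40 Mb to the end of the short arm there were 12 peaks at 7 places, and from 65 to 71 Mb there were 18 peaks at 10 places. Of these 30 peaks, 4 on the short arm and 8 on the long arm had a relative background of 2 or more. Places found in all 3 replicates were ranked by the lowest background of the replicates. The highest of the chromosome was chr9:66457387-66458692, where the background was 4.25, 3.30 and 3.09 times the genome-wide level. It had 168, 109 and 91 fragments at the summit and a fold enrichment of 4.96, 5.42 and 5.86.

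On the short arm, chr9:43686473-43687089 had a background of 2.30, 2.38 and 2.32 and a fold enrichment of 2.64, 2.29 and 3.08, which was low in each library. The next highest backgrounds of the short arm were at chr9:15244240-15244699 (1.95, 1.86 and 2.203) and chr9:2241579-2242398 (2.12, 1.68 and 1.86), both in the first 20 Mb. Those of the long arm were at chr9:90589190-90589844 (2.03, 1.55 and 1.55) and chr9:91267097-91267615 (1.504, 1.35 and 1.33). Next to the interval between the arms, the last short arm place, chr9:45118864-45119139, was seen in replicate 2 only at a fold enrichment of 3.27, and the first long arm place, chr9:66455663-66456636, in replicate 1 only at 2.85.

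The genes of interest were counted by arm on hg38, without any statement on their binding. The lists hold only chosen genes of chromosome 9, so their splits follow from the choice and do not describe gene classes. Of all protein-coding genes, 214 were on the short arm and 563 on the long arm. CDKN2A, CDKN2B, MTAP and the 5 listed interferon genes, which encode antiviral cytokines and neighbour CDKN2A, were on the short arm. PTCH1 and GAS1, a Hedgehog co-receptor, were on the long arm. The 10 listed genes of ribosome and nucleolus, a class to which many MYC targets belong, were split evenly, with EXOSC3, NOL6, POLR1E, RCL1 and RPS6 on the short arm and 5 on the long arm. Of 9 kinase and signalling genes, JAK2 was on the short arm and 8 were on the long arm, among them ABL1, NOTCH1 and CDK9, a kinase that releases paused RNA polymerase II. Of 4 chaperone genes 3 were on the short arm and 1 on the long arm, and of 5 chromatin genes 3 and 2. In RefSeq promoters of GRCh38, from 250 bases before to 50 after each start, the E-box CACGTG, which reads the same on both strands, was found in 17 of 248 short arm promoters (6.85%) and 60 of 681 long arm promoters (8.81%), beside 7.26% of 35116 promoters in all. The arm counts took promoters of protein-coding genes only. No such limit was set for the promoters in all, so the sets may differ in kind. A match is a run of letters and says nothing of binding.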

How the data were processed

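The peak lists of the 3 MYC libraries were used, and no values of the 3 IgG libraries were analysed here. Per the study's methods, the authors aligned reads to hg19 with Bowtie2 and called peaks library by library with MACS2, with a q-value limit of 0.05. Neither labels nor methods name the control of the peak calling, the program versions or the treatment of duplicate reads. The deposited columns hold a fold enrichment (a ratio to local background after adding 1 above and below), the −log10 of the p-value, the −log10 of the q-value, a score that follows the latter, and how far the summit lies from the peak start. The authors did not scale these values between libraries.

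Fragments at the summit and the local background were worked out from the deposited fold enrichment and p-value, the p-value being a Poisson probability. A whole number of fragments matched within 0.001 for 100% of peaks in each list. As genome-wide level, the lowest background found in the list was used. Recovery and merging were tested on simulated data, made with the same Poisson formula and with places set far apart. The simulation therefore does not cover closely neighbouring peaks or a departure from that formula. Peaks were merged by 1 bp overlap, and the consensus needed 2 replicates, as in the study's methods. Ratios between parts were formed within each replicate and tested with the exact two-sided sign-flip permutation test over 3 replicates. Shares have exact Clopper-Pearson intervals. Python 3.11.15, numpy 2.4.6, pandas 2.3.3, scipy 1.17.1 and matplotlib 3.10.9 were used.

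The named places were, among places found in all 3 replicates, the 5 with the highest geometric mean fold enrichment of each arm, the 3 strongest of the first 10 Mb and of the part from 130 Mb, and the 3 with the highest background of each arm, besides the places from 20 to 23 Mb. The arms, parts and gene lists were chosen with earlier results of these data known. As alternatives, the q-value limit was set to 0.01 or 0.001, lists were cut to equal numbers of peaks, places were merged by 50% reciprocal overlap or by summits within 200 bp, the consensus needed 3 of 3 replicates, each replicate was left out, nothing was added to the fold, or peaks from 38 to 71 Mb were dropped. The promoter share, E-box share at summits and gene lists at promoters were not run, since the genome at hand is hg38, and no position was carried between builds.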

Additional observations from a re-analysis of the deposited data

How the results depend on the processing

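No paired analysis was possible because the IgG libraries, whose replicate numbers match those of MYC, had no peak list used here. Ratios between parts were formed and tested within each library, and are paired in that sense. Leaving out the part from 130 Mb or the first 20 Mb, and keeping only places found in all 3 replicates, were chosen after seeing the data. Of 113 recomputed arm and part values, 85 stayed in direction and within a set limit. The limit was the replicate SD for ratios of medians and of peaks, and the counting interval for shares and the consensus ratio. For the 20 to 23 Mb count it was 1.5 times. Some of the 85 could not change, because the peaks dropped lay outside the part measured. The 20 to 23 Mb count without 38 to 71 Mb is an example. The tally therefore overstates how often a value held. The direction changed for peak width alone. Its ratio of long to short was 0.998 to 1.01 with 1 replicate left out, 0.998 being without replicate 3, 0.990 without the part from 130 Mb, 0.942 at places found in all 3 replicates and 1.04 without the first 20 Mb. The share of places in all 3 replicates on the short and long arms was 52.2% and 49.6% with equal numbers of peaks, 33.9% and 32.8% with reciprocal overlap, 35.7% and 33.8% with summits at most 200 bp apart, and 52.9% to 64.0% and 53.4% to 61.7% with 1 replicate left out. The long arm share was 39.6% without the part from 130 Mb. The ratio of peaks per Mb between the arms was 1.52 without 38 to 71 Mb, 1.72 without the first 20 Mb and 1.17 without the part from 130 Mb, where the consensus ratio was 1.18. Without the first 20 Mb the ratio of relative background was 0.930 and that of summit fragments 0.982, and without the part from 130 Mb they were 0.864 and 0.878. Without 38 to 71 Mb, the background ratio of the first 10 Mb was 1.39 and the density ratio of the part from 130 Mb was 3.52. The 20 to 23 Mb part had 6 to 9 consensus places with 1 replicate left out. The cause of these shifts was not tested. The genome-wide level ran from 7.79 to 4.76 fragments, and the number of peaks did not follow it in order, since replicate 3 had the lowest level and 810 chromosome 9 peaks against 776 in replicate 2.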
